A study of Mus musculus with 2 samples.

Results

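The clustered histone genes are the genes of the annotation whose symbols begin with Hist, a cluster number and h, and that are marked protein coding. They were 67 of the 55536 genes in the gene tables, and of the 21951 protein-coding genes. By the histone in each symbol, 6 encode the linker histone H1, 18 encode H2A, 18 encode H2B, 12 encode H3 and 13 encode H4. Of the 67 genes, 54 lie in cluster 1 on chromosome 13 (chr13:21715763-23934851), 10 in cluster 2 on chromosome 3 (chr3:96219865-96270132), 2 in cluster 3 on chromosome 11 (chr11:58948920-58956830) and 1 on chromosome 6 (chr6:136801553-136804415), all in mm10. The RNA was selected for poly(A) and came from regulatory T cells that had experienced inflammation, primary cells of male mice of 7 weeks that were derived from activated regulatory T cells. There was 1 biological replicate, and its technical replicates 1 and 2 are called library 1 and library 2 here; a second condition is not labelled. No condition could therefore be tested, an SD with n = 2 describes these 2 libraries only, and a p-value compares their reads and not animals or treatments.

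Most clustered histone mRNAs are made in S phase, when new DNA has to be packed into nucleosomes. They are known for lacking introns and for ending in a conserved stem-loop, bound by the stem-loop binding protein, in place of a poly(A) tail. Some of the genes also yield longer, polyadenylated mRNAs, and cells that have stopped dividing draw largely on replacement histones, whose genes lie outside the clusters and yield polyadenylated mRNA. Selection for poly(A) therefore passes over the tail-less form, and levels in such libraries do not measure the total histone mRNA of a cell.

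Library 1 held 26593267 expected counts (estimated counts, which share a read that fits several genes among them) and library 2 held 22036331. A second, smaller table of whole-number counts held 7911181 and 6972139. The 7 regulatory T cell markers were all detected, with Foxp3 at a TPM of 87.27 and 87.39 (TPM is a level per length, scaled to a common sum in each library). The libraries differed in markers of other cells: 7 erythroid genes summed to a TPM of 8501 (library 1) and 94.8 (library 2), and 6 macrophage genes summed to 29.7 and 62.0, with C1qc at 0 in library 1. Among the macrophage genes Lyz2 was higher in library 1 (23.78 and 3.72), and the 5 others, all higher in library 2, summed to 5.92 and 58.3. B cell markers (5 genes) summed to 601 and 546, NK cell markers (4 genes, Ncr1 at 0 in library 1) to 189.7 and 309, and CD8 T cell markers (2 genes) to 27.0 and 13.5. The part of these cells in the histone values was not tested, and in bulk RNA fewer cells of a type and less RNA per cell cannot be told apart.

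The annotated 3′ ends divide the genes. A gene was put in a long form if any of its transcripts had a 3′ UTR of at least 150 bases or was spliced, which took 28 of the 67, and the other 39 were the short form. Stem-loops were searched on the coding strand in the first 150 bases after the stop codon as GGNNNNNNNNNNNNCC, with 6 base pairs (G-T pairs allowed) around a loop of 4 bases. One was found in 46 of the 51 genes whose annotated transcript runs at least 40 bases past the stop codon, against 1.15% of 58758 protein-coding transcripts. The other 16 genes have too little annotated sequence after the stop codon to search. The 1.15% counts transcripts and not genes, and includes transcripts with too little sequence to search, so the shares are not like for like. The match began 22 to 59 bases after the stop codon, with a median of 32.0. The following stem-loops, from GENCODE M21 transcripts in mm10, show forms found in the most abundant genes and in genes that differed between the libraries. Of those shown, Hist2h2ac differed only in the smaller table. The capitals mark the stem and loop.
Hist1h2ap, H2A, chr13:21833026-21833050, minus strand: aaaaaaGGCTCTTTTCAGAGCCatc
Hist2h2aa2, H2A, chr3:96239778-96239805, minus strand: taaaaaGGCTCTTTTCAGAGCCacccac
Hist1h1c, H1, chr13:23739506-23739533, plus strand: ccaaaaGGCTCTTTTCAGAGCCaccact
Hist1h3a, H3, chr13:23761884-23761911, minus strand: accaaaGGCTCTTTTCAGAGCCacacac
Hist1h3e, H3, chr13:23561897-23561924, minus strand: caaaacGGCTCTTTTAAGAGCCacctcc
Hist2h2ac, H2A, chr3:96220412-96220439, minus strand: caaaaaGGCTCTTTTTAGAGCCaccaaa
Hist1h4m, H4, chr13:21812123-21812147, plus strand: actaaaGGCCCTTTTCAGGGCCatc
Hist1h4d, H4, chr13:23581944-23581971, plus strand: accaaaGGCCCTTTTCAGGGCCactacc
Hist1h4i, H4, chr13:22040960-22040987, minus strand: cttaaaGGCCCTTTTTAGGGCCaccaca
Hist1h4j, H4, chr13:21735431-21735458, plus strand: cctaaaGGTCCTTTTCAGGACCaccaca

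The 46 stem-loops came in 8 spellings. The spelling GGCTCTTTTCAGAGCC was held by 26 genes (3 H1, 10 H2A, 8 H2B and 5 H3) and by no H4 gene. The spelling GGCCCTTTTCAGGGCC was held by 7 genes, all H4, and the other H4 stem-loops were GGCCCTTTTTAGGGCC (2 genes), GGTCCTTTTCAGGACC (2 genes) and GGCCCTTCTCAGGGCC (1 gene). The spelling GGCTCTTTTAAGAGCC was held by 6 genes, 1 H1, 2 H2B and 3 H3. The remaining 2 were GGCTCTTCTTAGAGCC (Hist1h3g) and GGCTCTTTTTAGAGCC (Hist2h2ac). In the searchable genes Hist1h1a, Hist1h2bc, Hist1h2bq, Hist1h2br and Hist2h2be no match lay in the searched window, and 4 of these 5 are long-form H2B genes.

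A polyadenylation signal, AATAAA or ATTAAA on the coding strand, lay in the last 50 bases of a transcript in 17 of the 67 genes. It did so in 50.2% of the 58758 protein-coding transcripts, a share of transcripts and not of genes. Of the 17 histone genes, 16 were long form, and 13 long-form genes had a signal at the end of a transcript and a stem-loop after the stop codon. The exception was the short H4 gene Hist1h4h, whose ATTAAA lies just downstream of its stem-loop. Of the 28 long-form genes, 12 had no signal in that window. Signals of the most abundant long-form H1, H2A and H2B genes, of Hist2h2be, an H2B gene with no stem-loop match, and of Hist1h4h are shown, with the signal in capitals.
Hist1h1c, chr13:23740332-23740357, plus strand: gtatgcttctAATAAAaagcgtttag
Hist3h2a, chr11:58956787-58956812, plus strand: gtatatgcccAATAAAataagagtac
Hist3h2ba, chr11:58949497-58949522, plus strand: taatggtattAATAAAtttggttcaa
Hist2h2be, chr3:96223707-96223732, plus strand: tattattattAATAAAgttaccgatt
Hist1h4h, chr13:23531478-23531503, plus strand: acattttcttATTAAAagagcgaaca

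Clustered histone mRNA was present in both libraries at low levels. The 67 genes took 0.0262% of the expected counts of library 1 (95% exact binomial interval 0.0256 to 0.0268) and 0.0288% of library 2 (0.0281 to 0.0296). A gene was called detected if its TPM reached 1 in each library, and 41 were, which is 61.2% of the 67, beside 49.2% of all protein-coding genes. The detected histone genes had a median mean TPM of 8.78 and the detected protein-coding genes one of 30.0. At the other end, 8 genes were at 0 counts in both libraries, 4 in library 1 only and 9 in library 2 only. By counting error alone a count of 0 allows up to 3 counts, a CPM (counts scaled to the library total) of 0.113 in library 1 and 0.136 in library 2. Where copies share reads, a listed 0 allows more and does not show that a gene is absent. Hist2h2aa1, at 0 in both libraries, had a deposited posterior SD (how firmly a count was assigned) of 12.37 and 11.34 counts. Hist1h2ao, at 0 in library 2, had one of 46.63 there. Hist1h1t, an H1 known from the male germ line, held 0 and 5 counts in the large table and 2 and 5 in the small one. Hist1h2aa held 0 in both libraries of the large table and 4 and 2 in the small one, and Hist1h2ba was at 0 throughout.

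Long-form genes were detected more often, and short-form genes held more of the summed level. Of 28 long-form genes 21 were detected, and of 39 short-form genes 20. The median mean TPM was 5.07 in the long form and 2.20 in the short form, a log2 difference of 1.21. The difference was 2.65 among the genes of which at least 50% of the 50-base stretches occur in no other gene, and 0.72 where long form meant a transcript of at least 1000 bases. Yet the long form took only 33.2% of the summed TPM in library 1 and 34.4% in library 2, and a few short genes with close copies stood highest. Counted in reads it took 60.6% and 62.1%, and 83.5% and 84.3% when counted in the small table. Genes are not replicates, so these differences between groups of genes carry no test.

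**Figure D1:**
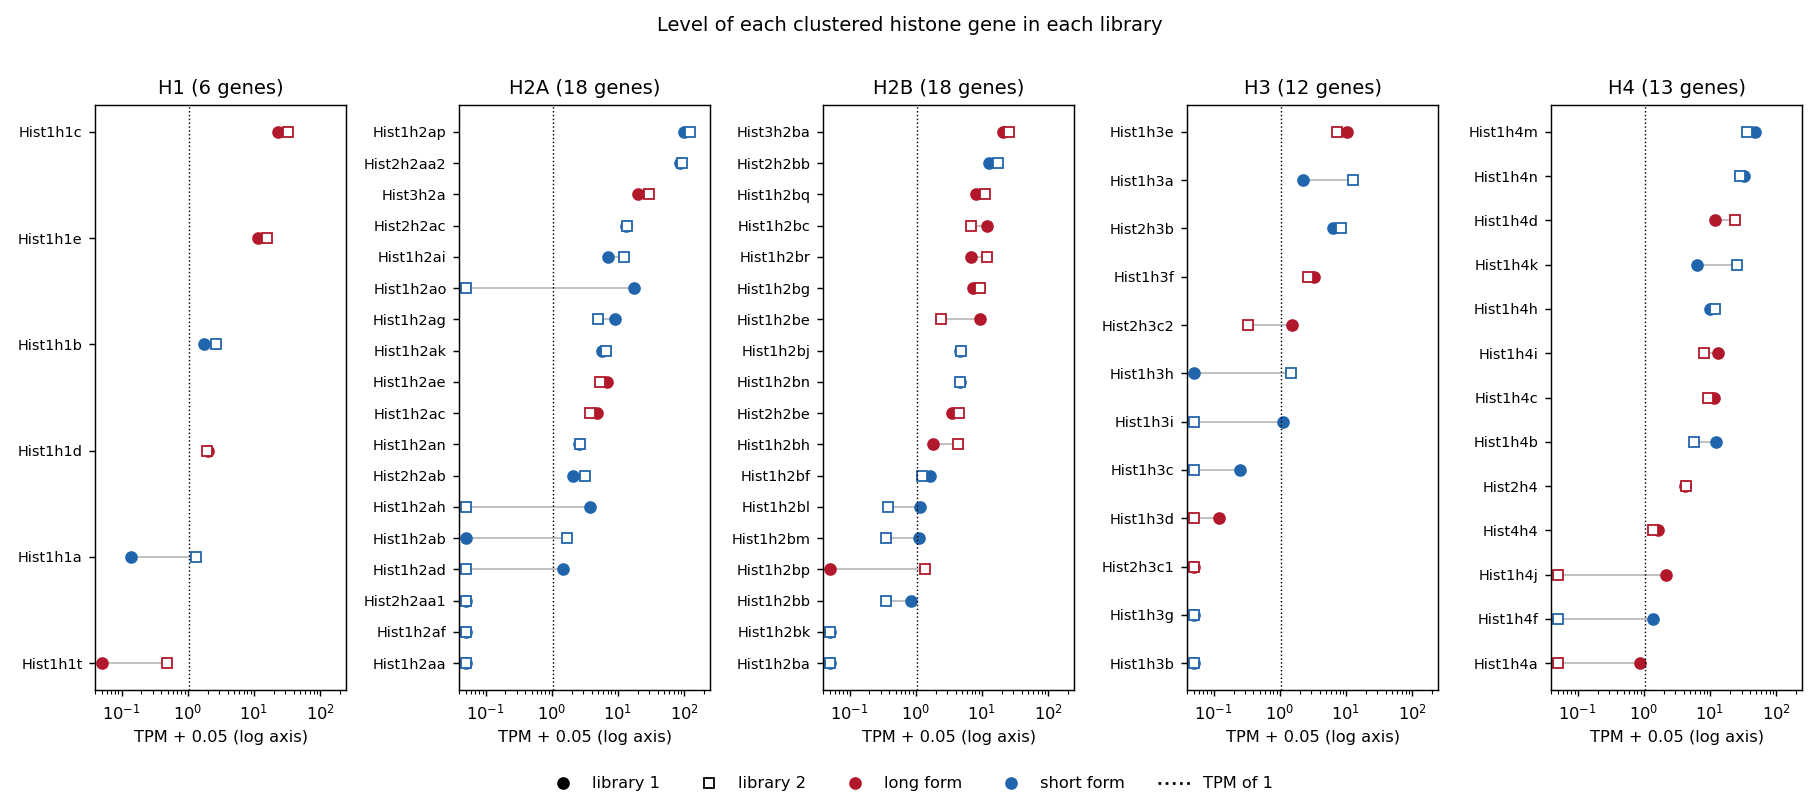
Level of each of the 67 genes in library 1 (filled circles) and library 2 (open squares) as TPM + 0.05 on a log axis, by histone family and ordered by mean level; red marks the long form and blue the short form, the dotted line a TPM of 1, and points at the left edge are at a TPM of 0. The highest genes, Hist1h2ap at 99.9 and 124.72 and Hist2h2aa2 at 86.77 and 93.84, are short-form H2A genes.

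The H1 genes, which encode the linker histone that sits where DNA enters and leaves the nucleosome, were led by long-form members. Hist1h1c (H1.2; chr13:23738808-23740367, a 1-exon gene with a 3′ UTR of 880 bases) stood at a TPM of 22.79 (library 1) and 33.01 (library 2) (mean 27.9 ± 7.23, SD, n = 2). Hist1h1e (H1.4) stood at 11.57 and 15.68. Both were higher in library 2, with log2 ratios of 0.51 (adjusted p = 1.32e-09, exact binomial test) and 0.42 (adjusted p = 0.000153, exact binomial test). Of the 50-base stretches of Hist1h1e 68.0% were its own, and its 3′ end overlaps a noncoding Hist1h2be transcript on the same strand. That transcript held 219.30 and 21.91 counts, and its part in the ratio of Hist1h1e was not tested. In the small table Hist1h1c held 231 and 248 counts (log2 ratio 0.28, adjusted p = 0.0568, exact binomial test), and Hist1h1e held 199 and 194, where neither ratio passed the test.

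The other H1 genes were low. Hist1h1d (H1.3) stood at 1.97 and 1.93, and its 240.74 and 193.14 counts were spread over a transcript model of 7425 bases. Hist1h1b (H1.5), a short gene with no sequence shared at 50 bases, stood at 1.74 and 2.66. Hist1h1a (H1.1), also free of shared stretches, held 1 count in library 1 and 12 in library 2 (log2 ratio 3.33, adjusted p = 0.00171, exact binomial test) and 1 and 13 in the small table. It was thus low in both libraries and higher in library 2 in both tables. The long form took 95.2% and 92.8% of the H1 TPM.

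H2A, which pairs with H2B in the nucleosome core, took 47.2% of the summed TPM of all 67 genes in library 1 and 46.5% in library 2. Most of it sat in a pair of short genes. Hist1h2ap (chr13:21833026-21833507, minus strand) stood at a TPM of 99.90 and 124.72 from 717.80 and 732.63 counts. Hist2h2aa2 (chr3:96239749-96240276, minus strand) stood at 86.77 and 93.84 from 689.71 and 609.83 counts. Together these genes took 31.4% and 33.6% of the TPM of all 67 genes, and in the small table each held 0 counts in both libraries. They are copies: Hist1h2ap and Hist1h2ao have the same 393-base coding sequence, as do Hist2h2aa2 and Hist2h2aa1, and none of the 50-base stretches of Hist2h2aa2 is its own.

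Hist3h2a (chr11:58954685-58956830), a long-form gene outside the large clusters, was the highest H2A gene with mostly its own sequence (68.5% of its stretches). It stood at 19.87 in library 1 and 29.71 in library 2 (log2 ratio 0.56, adjusted p = 1.86e-13, exact binomial test), and held 213 and 206 counts in the small table (log2 ratio 0.13, adjusted p = 0.449, exact binomial test). Hist2h2ac stood at 13.20 and 13.77, which did not differ beyond counting error. The further detected H2A genes ran from Hist1h2ai (6.97 and 12.37) through Hist1h2ag (9.06 and 5.02), Hist1h2ak (5.70 and 6.66), Hist1h2ae (6.89 and 5.30) and Hist1h2ac (4.75 and 3.75) to Hist1h2an (2.55 and 2.64) and Hist2h2ab (2.07 and 3.09). The 3 long-form H2A genes, Hist3h2a, Hist1h2ae and Hist1h2ac, took 11.2% and 12.8% of the H2A TPM but 66.6% and 70.2% of the H2A counts of the small table.

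H2B differed from H2A in that its long-form genes, 9 of 18, took 72.4% of the H2B TPM in each library. This share is of genes and not of long transcripts. In the long-form genes Hist1h2bq and Hist1h2br, a transcript of 381 bases, the length of the coding sequence, stood at 6.71 (library 1) and 9.77 (library 2) in each. It made up 82.6% and 89.4% of Hist1h2bq and 100.0% and 82.5% of Hist1h2br. Hist3h2ba (chr11:58948920-58949533), the neighbour of Hist3h2a, was highest at 20.54 and 25.41, and its ratio did not pass the test (log2 ratio 0.29, adjusted p = 0.0727, exact binomial test). The short gene Hist2h2bb followed at 12.55 and 17.68, with all of its stretches shared, 332 of them with the antisense model Gm20628 that spans it. Hist1h2bg stood at 7.19 and 9.23, Hist1h2bj at 4.64 and 4.81, Hist1h2bn at 4.68 and 4.67 and Hist1h2bf at 1.57 and 1.21, and none of these 4 differed beyond counting error.

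The ratios of the long H2B genes ran both ways. Hist1h2bc, a spliced gene spanning chr13:23684199-23692908, fell from 11.93 in library 1 to 6.81 in library 2 (log2 ratio -0.82, adjusted p = 2.68e-06, exact binomial test). Hist1h2bh rose from 1.79 to 4.28 (log2 ratio 1.23, adjusted p = 1.5e-06, exact binomial test). Hist2h2be, with all stretches its own and a 3′ UTR of 2192 bases, stood at 3.45 and 4.48 (log2 ratio 0.36, adjusted p = 0.0468, exact binomial test), and TMM scaling (0.26) removed this call. In the small table Hist1h2bc held 30 and 24 counts and Hist2h2be 27 and 21, and neither passed the test there.

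Hist1h2be showed the largest fall among H2B genes. It stood at a TPM of 9.45 (library 1) and 2.35 (library 2), from 340.34 and 73.40 counts (log2 ratio -1.93, adjusted p = 8.36e-31, exact binomial test). The transcript table placed most of the difference in a 1-exon noncoding transcript of 2099 bases, which overlaps the 3′ end of Hist1h1e on the same strand and held 219.30 and 21.91 counts, 68.2% and 33.5% of the gene. The coding transcript of 2480 bases held 121.03 and 51.47 counts. The gene model spans chr13:23583670-23621124, and the small table, made with another annotation, gave Hist1h2be only 7 and 10 counts. The direction was thus the opposite in the small table (log2 ratio 0.67, adjusted p = 0.439, exact binomial test).

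H3 was the lowest core histone, at 4.20% and 5.05% of the summed TPM of the 67 genes, and 4 of its 12 genes were detected. Hist1h3e stood at 10.36 and 7.20 (log2 ratio -0.54, adjusted p = 0.0136, exact binomial test), while the small table's counts (12 and 15) pointed the other way. Hist1h3a (chr13:23761853-23762386, minus strand), a short gene, stood at 2.19 in library 1 and 12.88 in library 2, from 17.61 and 84.75 counts (log2 ratio 2.51, adjusted p = 8.14e-14, exact binomial test), and the small table gave 8 and 26 counts (log2 ratio 1.82, adjusted p = 0.0021, exact binomial test). Of the tested H3 genes it had the largest ratio, and library 2 was higher in both tables. Hist2h3b stood at 6.39 and 8.43 and Hist1h3f at 3.22 and 2.63, and neither differed beyond counting error. Hist1h3b, Hist1h3g and Hist2h3c1 were at 0 in both libraries of the large table and the small one.

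H4, the partner of H3, took 26.1% and 23.7% of the summed TPM, and 10 of its 13 genes were detected. The short copies Hist1h4m (47.83 and 35.66) and Hist1h4n (32.31 and 28.38) were highest. Among genes with mostly their own sequence Hist1h4d (chr13:23581598-23582735, 3′ UTR of 822 bases) led, at 11.91 in library 1 and 24.24 in library 2 (log2 ratio 1.00, adjusted p = 1.64e-15, exact binomial test), with 102 and 125 counts in the small table (log2 ratio 0.47, adjusted p = 0.0274, exact binomial test). Library 2 was higher in both tables, and the ratio was smaller in the small one. Hist1h4k rose from 6.25 to 25.15 (log2 ratio 1.97, adjusted p = 2.39e-11, exact binomial test), but held 2 and 2 counts in the small table. Hist1h4i fell from 13.39 to 7.95 and Hist1h4b from 12.30 to 5.64, with log2 ratios of -0.77 and -1.13. Hist1h4j held 25.43 counts in library 1 and 0 in library 2, and 5 and 0 in the small table. With the 0 set to 3 counts it was 7.02-fold lower, which leaves out the error of the 25.43 counts. Its deposited TPM interval was 1.12 to 3.00 in library 1 and reached up to 0.479 in library 2. The H4 genes that did not pass the test included Hist1h4h (10.12 and 11.94), Hist1h4c (11.27 and 9.37), Hist2h4 (4.19 and 4.27) and Hist4h4 (1.61 and 1.34), although the small table called Hist4h4 lower in library 2 (58 and 27 counts).

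**Figure D2:**
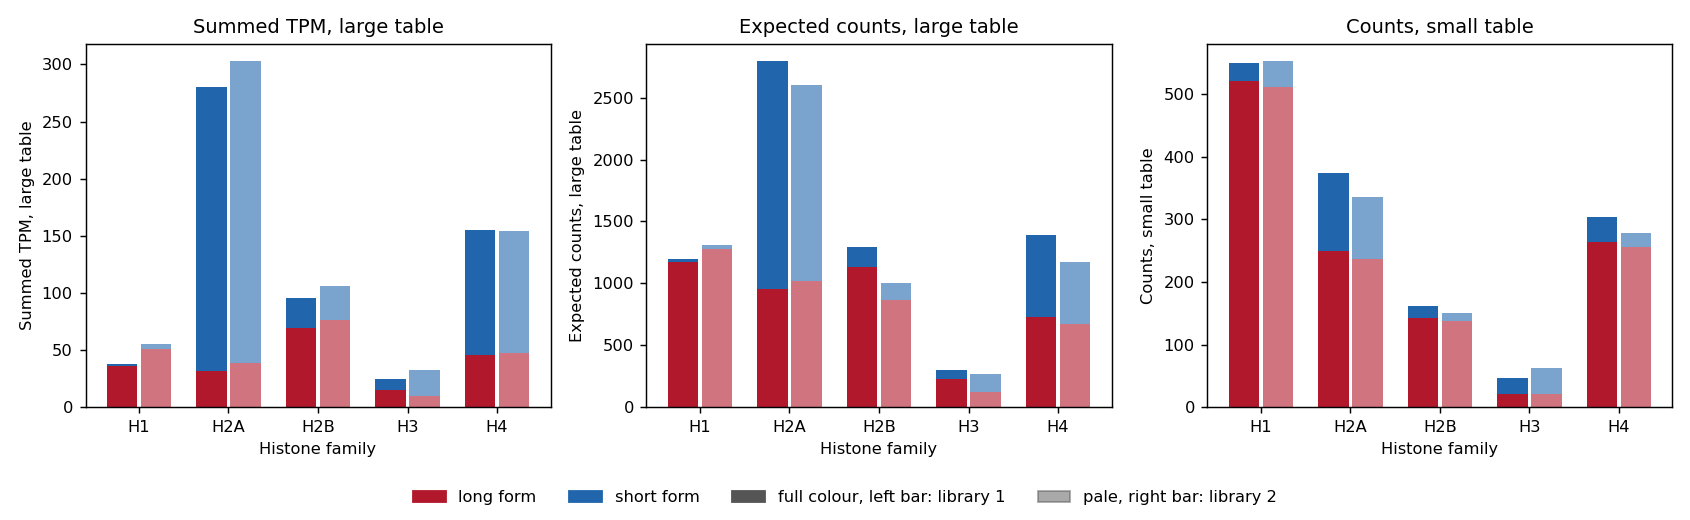
Sums over the genes of each family in library 1 (left bars) and library 2 (right, pale bars), split into long form (red) and short form (blue), in units of TPM, of large-table expected counts and of small-table counts. H2A leads in TPM with 280.4 and 303, almost all short form, while H1 leads in the small table with 549 and 552 counts.

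Many core histone genes resemble others of their family too closely for reads of 50 bases to separate them well. The H1 genes had 68.0% to 100.0% own stretches. Among coding sequences of equal length the median identity between pairs was 96.4% for H2A, 97.2% for H2B, 97.2% for H3 and 93.9% for H4. Identical coding sequences occurred in 5 pairs, 2 in H2A and 1 in each other core family. In 34 of the 67 genes under 50% of the 50-base stretches occurred in that gene alone (on either strand of all annotated transcripts), in 18 under 15% did, and in 5 (Hist2h2aa1, Hist2h2aa2, Hist2h2bb, Hist2h3b and Hist2h3c1) none did. The deposited posterior SD of the count, which measures how firmly a count was assigned, had a median of 12.0% of the count in library 1 and 8.23% in library 2 for histone genes of at least 10 counts. It was 4.31% and 4.26% for the long form, 19.7% and 16.5% for the short form, and 0 for the median protein-coding gene.

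Values of close copies were therefore also summed, for groups chosen after their values were seen. Hist1h2ao stood at a TPM of 17.40 (library 1) and 0 (library 2), from 124.45 and 0 counts, with posterior SDs of 88.04 and 46.63 counts. Its deposited posterior mean TPM was 21.05 (interval 2.76 to 42.8) and 7.03 (9.68e-05 to 21.4), so the intervals overlapped, and with allocation error the difference did not pass (adjusted p = 0.292, a normal test that adds the posterior SD to the counting error). Added to Hist1h2ap, the pair held 842.25 and 732.63 counts, a log2 ratio of 0.07. The difference listed for Hist1h2ao was thus absent from the sum. Hist2h2aa1 was listed at 0 in both libraries beside Hist2h2aa2, with a log2 ratio of 0.09 for their sum. Hist1h4m and Hist1h4n together held 484.49 and 317.48 counts (log2 ratio -0.34), a sum that was not tested. With allocation error neither gene passed (adjusted p = 0.357 and 0.742, normal test). Each also shares stretches with 10 members, and the sum of all H4 genes had a log2 ratio of 0.03. Hist1h2bq and Hist1h2br share 1 identical transcript of 381 bases, to which each gene was given the same 36.98 counts in library 1 and 44.02 in library 2, and their sum rose from 120.06 to 161.52 (log2 ratio 0.70). Hist2h3c2 held 23.90 and 3.75 counts (log2 ratio -2.25), and with the copies Hist2h3c1 and Hist2h3b the sum was 70.44 and 53.96 (log2 ratio -0.11).

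**Figure D3:**
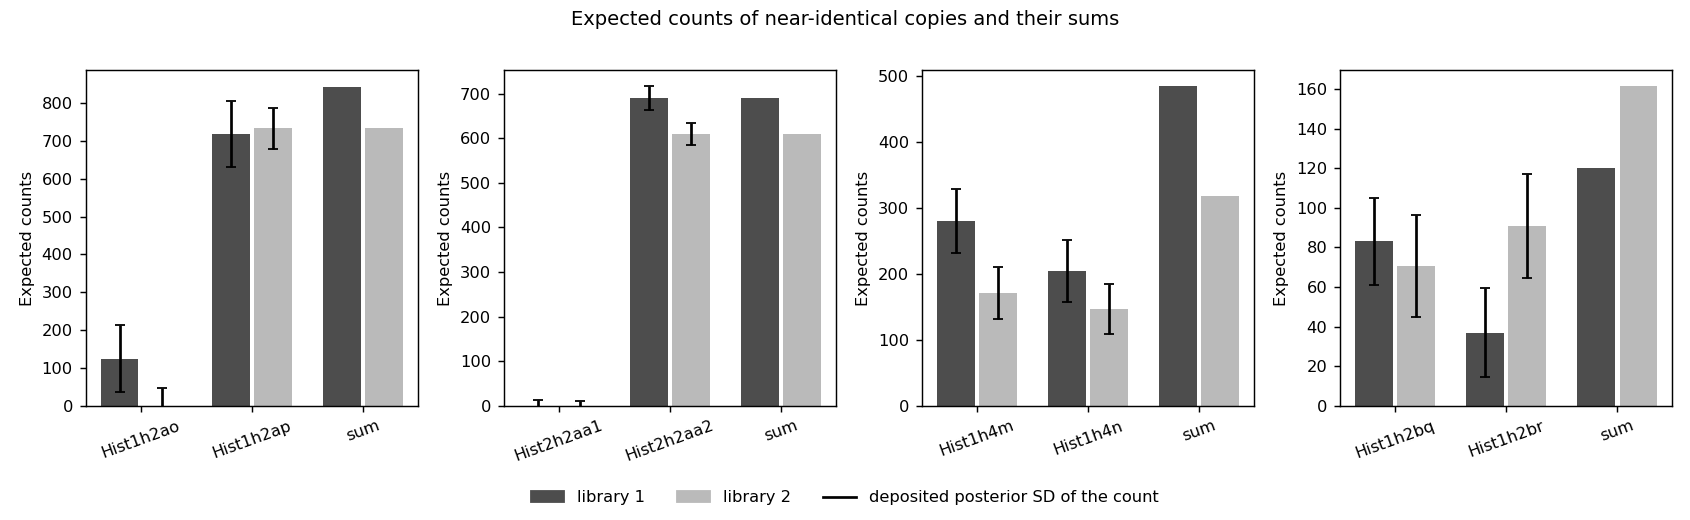
Expected counts of 4 pairs of genes with identical coding sequences and of their sums, in library 1 (dark) and library 2 (light); error bars on single genes are the deposited posterior SD of the count, and sums carry no bar. Hist1h2ao holds 124.45 and 0 counts while its pair sums to 842.25 and 732.63.

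Counts were also assigned to models annotated on the other strand of H2A genes. In the annotation 17 short models of 129 to 144 bases, typed as miRNA, lie opposite 17 of the 18 H2A genes. They held 493 counts in library 1 and 392 in library 2, equal to 17.7% and 15.1% of the counts of the H2A genes themselves. Gm44346, opposite Hist1h2an, held 231.98 and 197.42 of these, beside 14.57 and 12.33 on Hist1h2an. In library 2, 8 of the models were each listed at 14.28 counts and in library 1 at 0. Strand use in counting is not given in the sources used here, so reads of these models and of the H2A genes cannot be told apart. H2A alone had a log2 ratio of 0.17 and H2A with the models one of 0.14.

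Between the libraries, the summed counts of the 67 genes differed little and the single genes differed in both directions. The log2 ratio of the sums, library 2 over library 1, was 0.14 by library totals, 0.04 with TMM scaling and 0.03 with DESeq2 size factors, while the median of all detected genes was 0.01, -0.09 and -0.10. By family the ratios of the sums were 0.41 for H1, 0.17 for H2A, -0.10 for H2B, 0.11 for H3 and 0.03 for H4. That of H1 kept its sign with both other scalings (0.31 and 0.30), and that of H4 did not (-0.07 and -0.08). In the small table the ratios were 0.19 for H1, 0.03 for H2A, 0.07 for H2B, 0.61 for H3 (from 46 and 62 counts) and 0.06 for H4. The H3 ratio of the large table was 0.01 with TMM scaling and 0.00 with DESeq2 size factors.

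Of the 67 genes, 49 had the 10 counts over both libraries that the test needed, and 26 were called at an adjusted p under 0.05 (exact binomial test, Benjamini-Hochberg adjustment over 24253 genes), 13 higher in each library. Of all genes tested 70.3% were called, 23.9% higher in library 1 and 46.4% higher in library 2, so the histone share was not above the background. At a ratio of at least 2-fold as well, 14 were called, 7 in each direction, beside 39.3% of all genes tested (8.33% higher in library 1 and 31.0% in library 2). When the deposited posterior SD was added to the counting error (a normal test chosen after the data were seen), 15 genes were called, 6 higher in library 1 and 9 higher in library 2, beside 67.4% of all genes tested (22.8% and 44.5%). The 11 genes that lost the call were Hist1h2ab, Hist1h2ac, Hist1h2ad, Hist1h2ag, Hist1h2ah, Hist1h2ai, Hist1h2ao, Hist1h2ap, Hist1h2br, Hist1h4b and Hist1h4m. Of these, 8 are H2A genes, and 9 are short form.

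The small table gave fewer calls. It listed 64 of the 67 genes (not Hist1h2bh, Hist1h2bm and Hist2h2bb), and 29 had enough counts. Of these 5 were called, 2 higher in library 1 (Hist2h2ac and Hist4h4) and 3 higher in library 2 (Hist1h1a, Hist1h3a and Hist1h4d), beside 54.3% of all genes tested there (22.1% and 32.2%). Hist1h1a, Hist1h3a and Hist1h4d were called with the same sign in both tables, the first 2 of them at least 2-fold in each; of all genes tested there, 24.3% were called at that size and 17.6% were so with library 2 higher. No gene was called in both with opposite signs. The sign of the ratio was the same in 28 of 37 genes compared, which was 15 of 19 in the long form and 13 of 18 in the short form.

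**Figure D4:**
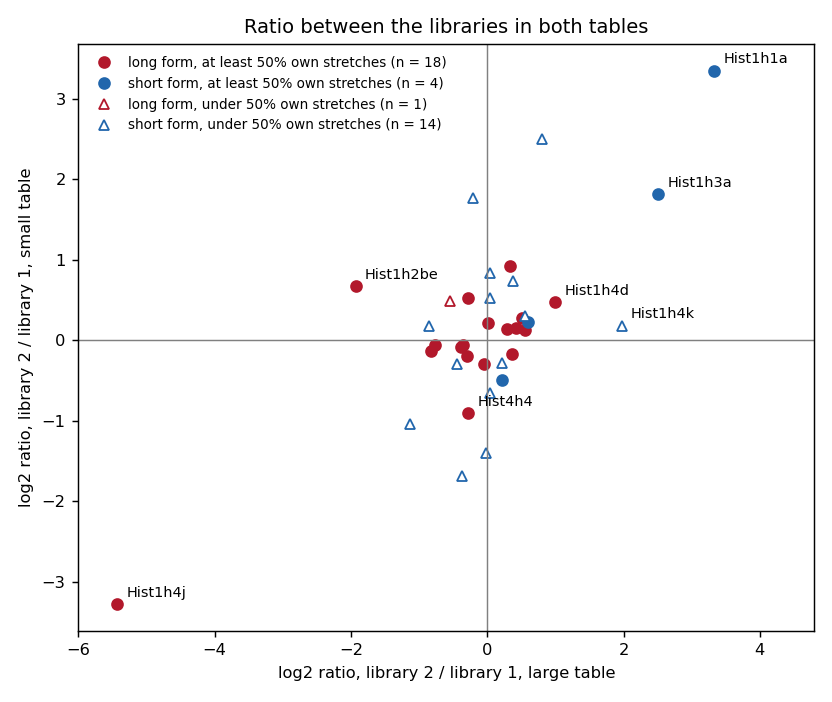
log2 ratio of library 2 over library 1 in the large table (x axis) and in the small table (y axis), 0.5 counts added, for 37 genes with at least 10 counts over both libraries in the large table and any in the small one; colours mark the form, filled circles genes with at least 50% own stretches and open triangles the others. Hist1h1a (3.33 and 3.35) and Hist1h3a (2.51 and 1.82) lie far to the upper right, and Hist1h2be (-1.93 and 0.67) to the upper left; the ratios of Hist1h4j rest on 0 counts in library 2.

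How many counts the small table kept tended to rise with the share of a gene's own sequence. For 45 genes listed there with at least 10 counts in the large table, the small table held a median of 16.8% of the large table's counts, beside 47.2% for all protein-coding genes. The median was 30.2% for the 22 genes with at least 50% own stretches, 4.20% for the 23 others and 0.142% for the 12 of them under 15%. Spearman's rho across the 45 genes was 0.68, as a description, since the genes share their libraries. Some genes with mostly their own sequence kept less than the median of 16.8%. Examples are Hist2h2be (100.0% own, 15.8% kept), Hist1h2ac (85.9% and 11.1%) and Hist1h2be (83.7% and 4.11%). The part of the other annotation of the small table was not tested. Of the 45, Hist2h2ab, Hist1h1a and Hist1h1b held more counts in the small table than in the large one. Hist1h1b, for example, held 20 and 25 counts in the large table and 27 and 28 in the small one.

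**Figure D5:**
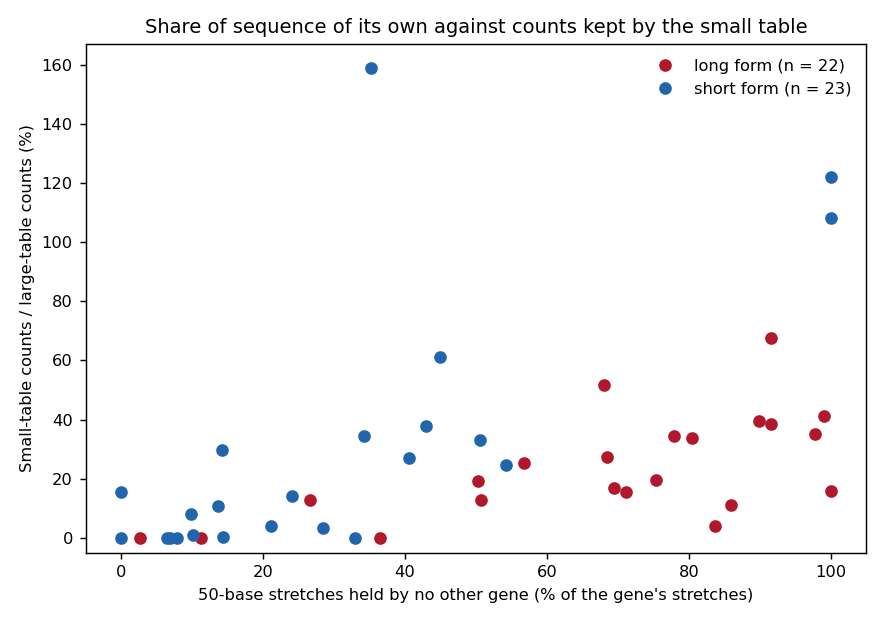
Counts of the small table as a percentage of the counts of the large table, both libraries summed, against the percentage of 50-base stretches that no other gene holds, for 45 genes in long form (red) and short form (blue). Genes under 15% own sequence have a median of 0.142% and genes of at least 50% one of 30.2%.

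Replacement histones, which are made outside S phase as well, summed to a far higher TPM than the clustered genes in this poly(A)-selected RNA. Selection for poly(A) passes over the tail-less clustered mRNAs, so these levels do not compare the total mRNA of the 2 kinds. The 11 genes of that list summed to a TPM of 3542 (library 1) and 3370 (library 2), against 595 and 650.3 for the 67 clustered genes. H3f3b and H3f3a, the genes of H3.3, stood at 1112 ± 91.0 and 1042 ± 90.8, H2afz (H2A.Z) at 558 ± 109 and H2afy (macroH2A) at 306 ± 6.52 (SD, n = 2). The 12 clustered H3 genes together summed to 25.0 and 32.8. Not every replacement gene stood high. H2afj (mean TPM 145) and H2afv (124) lay near the highest clustered gene, Hist1h2ap (112). H1f0 (72.9), H2afx (59.7), Cenpa (35.0), H2afy2 (0.385) and H1fx (0.310) lay below it. Of the 11 replacement genes 6 were called higher in library 1 and 2 (H3f3b and H1f0) in library 2, beside 23.9% and 46.4% of all genes tested, and the 3 others had ratios above 0 that were not called. TMM scaling removed the call of H3f3b (0.03). The log2 ratio of their summed counts was -0.06, and 0.09 in the small table. H2afz had a log2 ratio of -0.44 in the large table and of 0.07 in the small one, and H3f3a one of -0.21 and of 0.32. The small table held only 52 and 48 counts of H2afz and 72 and 79 of H3f3a. Neither ratio passed the test there (adjusted p = 0.887 and 0.272, exact binomial test), so the change of sign lay within counting error. H1fx was the lowest of the named genes, at 0.56 and 0.06.

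Among genes that act on histone mRNA and histone protein, more were called higher in library 1 than in library 2. Of 20 genes of histone mRNA synthesis, 3′ processing and decay, 12 were called higher in library 1 and 3 in library 2, beside 23.9% and 46.4% of all genes tested. By ratio alone 16 leaned to library 1 and 4 to library 2. The median log2 ratio of the 19 detected genes of the list was -0.17, beside 0.01 for all detected genes. Slbp, the stem-loop binding protein, stood at a TPM of 131 ± 6.69 (log2 ratio -0.18), Cpsf3, the nuclease subunit that cuts the mRNA, at 119 ± 1.01 (0.05, not called), Cpsf1 at 113 ± 19.4 and Tut7, which adds uridines during histone mRNA decay, at 111 ± 13.7. Casp8ap2, a protein of the histone locus body, was higher in library 2 (0.43), and Zfp473, a partner of the U7 particle, was lower there (-2.24). Of 19 histone chaperones, 11 were called higher in library 1 and 3 in library 2, beside the same shares, and by ratio alone 14 leaned to library 1 and 5 to library 2. Their median log2 ratio was -0.09. Rbbp4 stood at 262 ± 36.4, Nap1l4 at 244 ± 6.55, Rbbp7 at 206 ± 21.1 and Ssrp1, a subunit of the FACT complex, at 169 ± 14.7. Nasp, the H1 and H3-H4 chaperone, and Chaf1b, a subunit of the chromatin assembly factor, had log2 ratios of -0.48 and -0.52.

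The cell cycle lists did not move alike. All 12 mitosis genes were called, 11 higher in library 1 and 1 (Top2a, log2 ratio 0.25) in library 2. Of all genes tested 70.3% were called, 23.9% higher in library 1 and 46.4% in library 2. The mitosis genes had a summed TPM of 141 and 35.8, and 8 of the 12 were detected. Ccnb1, cyclin B1, stood at 26.32 and 2.00, Ccnb2 at 24.40 and 0.70, Plk1 at 6.49 and 0.07, Ccna2 at 20.65 and 7.31 and Birc5 at 18.87 and 2.92. Of 21 DNA replication genes 16 were called, 10 higher in library 1 and 6 in library 2, beside the same shares of all genes tested. Their summed TPM was 764 and 711. Pcna, the sliding clamp, stood at 144.02 and 147.47, Mcm6 at 129.53 and 110.12, Mcm4 at 63.98 and 70.25 and Mcm7 at 59.07 and 60.56, while Chek1 (1.33 and 5.22) and Gins1 (1.42 and 5.84) were higher in library 2. The log2 ratio of summed counts was thus -2.09 for mitosis genes, -0.15 for replication genes and 0.14 for the clustered histone genes. In the small table the same sums gave -1.90, -0.15 and 0.12.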

How the data were processed

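Per the labels, 2 technical libraries of 1 biological sample were sequenced. A large gene table and a transcript table per library hold the authors' expected counts, TPM and FPKM, made from transcriptome alignments (mm10, GENCODE M21), per the file headers and the accompanying description. The transcript table also gives each transcript's percent of its gene, per the file headers. A small gene table per library holds whole-number counts the authors made with GENCODE M4. Strand use, aligner, quantifier and the level of the deposited TPM interval: not given in the sources used here. Deposited length minus effective length is 49, which gives reads of 50 bases.

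Expected counts were rounded and compared by a 2-sided exact binomial test against library totals, for genes with at least 10 counts over both libraries, with Benjamini-Hochberg adjustment over all genes tested (scipy 1.17.1). A call needed an adjusted p under 0.05. Ratios are library 2 over library 1 after adding 0.5 counts. A fold against 0 counts sets the 0 to 3 counts and takes the other count without error. Intervals cover counting error only, since PCR copies are not independent molecules. Alternatives were edgeR 4.0.16 TMM factors, DESeq2 1.42.0 size factors, other thresholds and definitions, the small table and each library alone. The script for the test was checked on simulated counts.

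All members passed into levels and sums, and 49 into the test. Named were the 41 detected genes, the next 5 by mean TPM, genes called at least 2-fold in both tables, and of each list of replacement histones, histone mRNA processing, chaperones, mitosis and DNA replication the 4 most abundant and the 2 largest called ratios; marker lists are given mainly as sums, and other names were chosen with their values in view. Genes and lists were chosen with earlier results of these data known. List symbols Zcchc6 and Zcchc11 were matched to Tut7 and Tut4 through RefSeq synonyms. Some marker genes are not reported here other than within a sum.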

Additional observations from a re-analysis of the deposited data

Results flagged for a closer look

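Counts appeared in models that the comparisons of histone genes do not use. The 17 short models typed as miRNA opposite H2A genes held 493 counts in library 1 and 392 in library 2, above the 3 counts that a count of 0 allows by counting error alone. Of the 3 histone pseudogenes with a cluster symbol, Hist3h2bb-ps, beside Hist3h2a on chromosome 11 and with 70.0% of its 50-base stretches its own, held 29.46 counts in library 1 and 7.22 in library 2 (log2 ratio -1.69, adjusted p = 0.0036, exact binomial test). Hist1h2aj, with 6.93% own stretches, held 0 and 12.92 counts, with posterior SDs of 14.46 and 18.97, and Hist1h2al held 0 in both.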

How the results depend on the processing

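The number of detected genes, 41, was 26 at a TPM of at least 5, and 45 to 50 with a single library. The number called, 26 (13 higher in library 1 and 13 in library 2), was 5 in the small table (2 and 3), 14 at 2-fold or more (7 and 7) and 15 with allocation error added (6 and 9). The log2 difference between long and short form, 1.21, was 0.83 with a 3′ UTR of at least 300 bases, 0.72 with a transcript of at least 1000 bases, 1.65 for a short list from background knowledge, 2.72 in CPM, 0.97 with the posterior mean TPM, 1.40 to 1.47 with a single library and 2.65 among genes with at least 50% own stretches, an alternative chosen after the data were seen. Its sign held in each. With TMM and with DESeq2 scaling, of 47 histone genes 40 kept direction and call, 1 lost the call and 6 that were not called changed sign: Hist1h2an, Hist1h2bj and Hist1h2bq (each -0.06 and -0.07), Hist2h2aa2 (-0.00 and -0.01), Hist2h2ac (-0.05 and -0.06) and Hist2h4 (-0.09 and -0.10). In the small table, of 28 histone genes 13 kept both, 7 lost the call, 1 gained it and 7 changed sign: Hist1h2ak (-0.28), Hist1h2be (0.67), Hist1h3e (0.49), Hist1h4c (0.53), Hist1h4h (-0.49), Hist2h2ac (-0.65) and Hist2h2be (-0.17). Other genes changed sign in the small table, Cd3e (0.15), Cd4 (0.13), H2afz (0.07), H3f3a (0.32), Nap1l4 (0.03), Rbbp4 (0.01), Rbbp7 (0.01), Klrb1c (0.54) and Ighm (0.09), or with TMM and DESeq2 scaling, H2afy (-0.07 and -0.08), Pcna (-0.06 and -0.07), Cpsf3 (-0.05 and -0.06) and Mcm4 (-0.01 and -0.02). The causes were not tested. No paired analysis was possible because the libraries form 1 group. A test without either library was not run, since none is left. Depth limits genes under 10 counts, 18 of the 67, whose ratios were not tested.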
